A study of Mus musculus with 12 samples.

Results

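The 77 nuclear genes for proteins of the mitochondrial ribosome were followed through 12 RNA-seq libraries of mouse lateral habenula. They were chosen by name alone: every protein-coding gene of the deposited table whose mouse symbol begins with Mrpl or Mrps and a number, after matching its Ensembl identifier to GENCODE M21. This gave 77 of the 17416 genes, 48 named for the large subunit and 29 named for the small subunit. The annotation holds 78 such genes, and Mrpl53 is not analysed here. The libraries came from 4 stress-susceptible, 4 stress-resilient and 4 non-defeated mice, all C57BL/6 and 9 weeks old, with no transgene or drug named for any group. The lateral habenula, a small epithalamic nucleus studied for its part in aversion and stress responses, was punched out of slices 500 µm thick, and each library was made from 100 pg of RNA with a SMART-Seq v4 kit. The authors' behaviour data give a separate mouse identifier, matched by name, for each of the 12 libraries. The p-values measure the spread between these samples, which may in part be technical. In bulk punches, fewer cells of a type and less RNA per cell cannot be told apart.

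The mitochondrial ribosome translates only the few messenger RNAs made from mitochondrial DNA, all of which encode membrane subunits of the respiratory chain and ATP synthase. Its proteins are encoded in the nucleus, made by cytosolic ribosomes and imported, while its ribosomal RNAs are transcribed from mitochondrial DNA. Assembly therefore joins products of both genomes, and the nuclear subunit genes are known for housekeeping expression in all tissues. The subunit given here for each gene follows its symbol. Mammalian ribosome structures place the products of Mrps30 and Mrps18a in the large subunit, and the product of Mrps36 has since been assigned to the 2-oxoglutarate dehydrogenase complex.

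Depth ranged from 33.3 to 47.7 M reads (M, 1000000 reads), and all 77 genes had at least 198 reads in every library. The lowest mean correlations with the other libraries were those of non-defeated 4 (0.932), resilient 4 (0.933) and non-defeated 3 (0.935). Summed lateral habenula markers lay between 1716 and 2744 CPM (reads per M reads, scaled by TMM, the trimmed mean of M values) in all 12 libraries, against 96.5 to 592 CPM for medial habenula markers and 170 to 465 CPM for thalamus markers. These lists hold 6, 10 and 8 different genes, so their sums do not measure how pure the punches were. Blood cell markers summed to 871 to 5680 CPM in susceptible, 1029 to 2071 CPM in resilient and 263 to 825 CPM in non-defeated libraries, and their part in the results below was not tested. The library titles carry a letter, H or N, whose meaning is not given. It is H in all non-defeated and N in all resilient libraries, so the letter and that comparison cannot be told apart, while susceptible replicates 1 and 2 carry H and 3 and 4 carry N.

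The genes lie on 17 chromosomes and share promoter features that the choice by name did not use. Promoters of the RefSeq table (GRCm38.p6, 250 bases before to 50 bases after the start of transcription) were found for 68 of the 77 genes. They were searched on both strands for the letters GCGCANGCG, the core of the site of nuclear respiratory factor NRF1, for CCGGAAGT, an ETS site of the kind read by GABP (NRF2), and for AANATGGCG, a core of the YY1 site. These are factors known for their sites in promoters of nuclear genes for mitochondrial proteins. The NRF1 letters stood in 16 of the 68 genes (23.5%), against 13.5% of 12202 other genes measured here. The ETS letters stood in 12 (17.6%, against 7.93%) and the YY1 letters in 11 (16.2%, against 5.06%). At least 1 of the 3 motifs was found in 36 genes (52.9%, against 23.6%), 3 of which held 2 kinds, and no hits of different motifs shared bases. The matches are descriptions of letters in a window, not of bound sites. Of the promoters below, Mrpl12 and Mrpl45 show the NRF1 letters in genes of the stalk and the exit tunnel of the large subunit, and Mrps22 and Mrpl43 show the ETS letters in genes among those of smallest p in the comparisons. Capitals mark the motif on either strand, and bases within annotated exons are left out.
Mrpl12, chr11:120484387-120484612, strand plus: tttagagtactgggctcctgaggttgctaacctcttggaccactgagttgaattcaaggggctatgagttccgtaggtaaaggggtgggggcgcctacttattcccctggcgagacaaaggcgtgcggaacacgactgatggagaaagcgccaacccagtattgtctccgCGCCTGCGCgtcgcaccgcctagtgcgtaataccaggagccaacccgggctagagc
Mrpl45, chr11:97315466-97315715, strand plus: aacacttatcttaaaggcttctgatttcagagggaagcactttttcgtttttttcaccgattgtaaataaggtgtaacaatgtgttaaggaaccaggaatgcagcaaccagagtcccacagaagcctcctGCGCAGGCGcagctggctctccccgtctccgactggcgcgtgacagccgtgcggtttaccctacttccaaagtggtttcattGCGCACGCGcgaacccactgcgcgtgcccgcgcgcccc
Mrps22, chr9:98601680-98601929, strand minus: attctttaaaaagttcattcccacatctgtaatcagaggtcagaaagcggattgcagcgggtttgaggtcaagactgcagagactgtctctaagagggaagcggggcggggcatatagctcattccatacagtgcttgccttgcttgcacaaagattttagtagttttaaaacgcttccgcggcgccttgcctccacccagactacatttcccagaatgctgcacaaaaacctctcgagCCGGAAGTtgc
Mrpl43, chr19:45006443-45006557, strand minus: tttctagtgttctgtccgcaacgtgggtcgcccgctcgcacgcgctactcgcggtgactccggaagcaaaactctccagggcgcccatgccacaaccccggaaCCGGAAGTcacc
The printed stretch of Mrpl45 holds the NRF1 letters in 2 places, and in Mrps22 and Mrpl43 the ETS letters lie just before the start of transcription.

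Many of the genes also start close to a neighbour on the opposite strand. A protein-coding gene starting on the opposite strand within 1000 bases, or overlapping by up to 500 bases, was present for 26 of the 77 genes (33.8%), 18 of the large and 8 of the small subunit, against 12.9% of 14503 other protein-coding genes of the table. Mrpl46 and Mrps11 are such a pair with each other. Mrps12 starts 172 bases from Sars2, the mitochondrial seryl-tRNA synthetase gene, Mrps27 starts 81 bases from Ptcd2 and Mrpl36 overlaps the start of Ndufs6, a complex I subunit gene. Mrpl49 starts 59 bases from Fau, which encodes a ribosomal protein of the cytosol, and Mrpl32 starts 75 bases from Psma2, a proteasome subunit gene. None of the 24 neighbours outside the family passed the test in any comparison (limma, adjusted p under 0.05), and their median log2 fold changes were 0.03 for susceptible over non-defeated, 0.00 for resilient over non-defeated and 0.02 for susceptible over resilient. Exons of 32 of the 77 genes overlap another gene, and in 17 the overlap exceeds 10% of exon length. Among them are Mrps34 (77.8%, with Mapk8ip3 and Nme3), Mrps25 (69.8%, with Nr2c2), Mrpl19 (36%, with Gcfc2) and Mrpl43 (33.4%, with Twnk, the mitochondrial DNA helicase gene). As the use of strand in counting is not given in the sources used here, reads of these pairs may have been shared or lost.

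All 77 genes were expressed at moderate levels. The mean over 12 libraries ranged from 11.5 to 175 CPM, with a median of 59.2 CPM, and together the genes took 0.393% to 0.554% of the reads of a library. Divided by the length of the principal transcript, the median level was 42.7 CPM per kilobase, 43.8 for the large and 35.03 for the small subunit. The level per length of the genes at the 90th percentile was 9.39 times that at the 10th, although most of the encoded proteins are present once in each ribosome. With the union of exons as the length this ratio was 12.3. Among large subunit genes the highest levels per length were those of Mrpl42 (262 CPM per kilobase, 149 to 391 over libraries), Mrpl20 (141) and Mrpl27 (134), and the lowest those of Mrpl1 (6.37), Mrpl47 (6.76) and Mrpl19 (7.15). In the small subunit Mrps21, the counterpart of bacterial S21, stood highest (165 CPM per kilobase, 91.2 to 196 over libraries), before Mrps18a (136) and Mrps33 (130), while Mrps35 (5.10), Mrps30 (8.12) and Mrps25 (8.46) stood lowest. The ranges over libraries of these top and bottom genes were far apart, but those of neighbours in the order overlapped, as the plot of level per length shows. Mrpl42 stood 12th of 48 when the union of exons was used, so its first place rests on the transcript chosen.

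**Figure D1:**
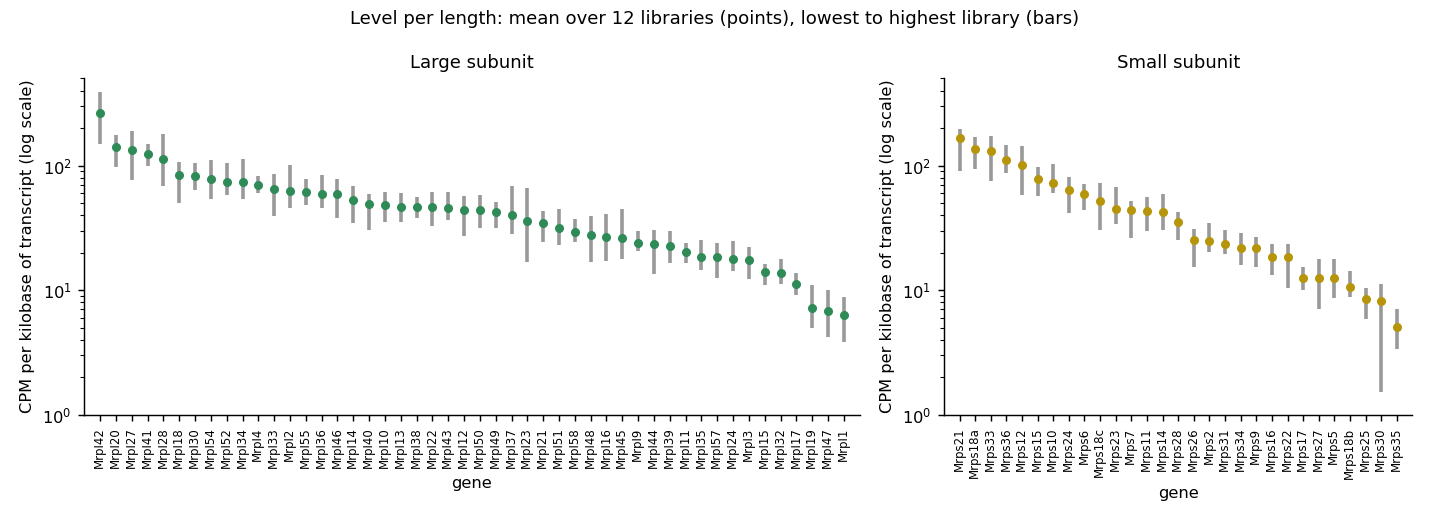
Level per kilobase of the principal transcript (CPM per kilobase, log scale) of each large (left) and small (right) subunit gene, in order. Points are means over 12 libraries and bars run from the lowest to the highest library. Most bars overlap those of their neighbours, and Mrps30 has the longest bar, down to 1.51 CPM per kilobase.

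Levels were steady within groups. The within-group SD of log2(CPM + 1) had a median of 0.26 over the 77 genes, against 0.35 for 4965 other genes of similar level (24.4 to 107 CPM) and 0.46 for all 17111 genes tested. Only Mrps30 (0.76) and Mrpl23 (0.61) exceeded 0.5. Mrps30 had 26.1, 35.95, 37.5 and 15.8 CPM in susceptible, 34.8, 29.7, 34.5 and 20.5 CPM in resilient and 24.8, 24.3, 34.2 and 5.02 CPM in non-defeated libraries. Its spread came mostly from non-defeated 4, which lay far below the other 11 libraries. Mrpl23 had 25.2, 26.0, 38.6 and 11.7 CPM in susceptible, 17.6, 13.9, 18.5 and 26.1 CPM in resilient and 45.9, 20.1, 15.02 and 38.2 CPM in non-defeated libraries. Its groups overlapped throughout, and the annotation holds a pseudogene named after it, Mrpl23-ps1, with which reads could be shared.

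No mitochondrial ribosomal protein gene passed the test between susceptible, resilient and non-defeated mice, and most fold changes were small against the spread of the libraries (limma on log2(CPM + 1), Benjamini-Hochberg adjusted p under 0.05, 17111 genes). The count was 0 of 77 for susceptible over non-defeated, where 0.0% of all genes passed, 0 of 77 for resilient over non-defeated, where 0.00584% passed, and 0 of 77 for susceptible over resilient, where 0.0468% passed. At an unadjusted p under 0.05 the counts were 1, 0 and 0 of 77, against 3.54%, 7.14% and 3.51% of all genes. On whole reads recovered from the CPM, the edgeR quasi-likelihood test and DESeq2 also called 0 of the 77 in each comparison. With groups of 4 the test had a median SE of 0.21 on the log2 scale for these genes. The 95% interval of the log2 fold change lay within 1 of 0, that is within 2-fold, for 75 of 77 genes in each comparison (97.4%), against 54.5%, 52.6% and 54.9% of all genes in the same order. It lay within 0.5 of 0 for only 28, 16 and 25 of the 77, so smaller differences of single genes were not detectable at this replication.

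**Figure D2:**
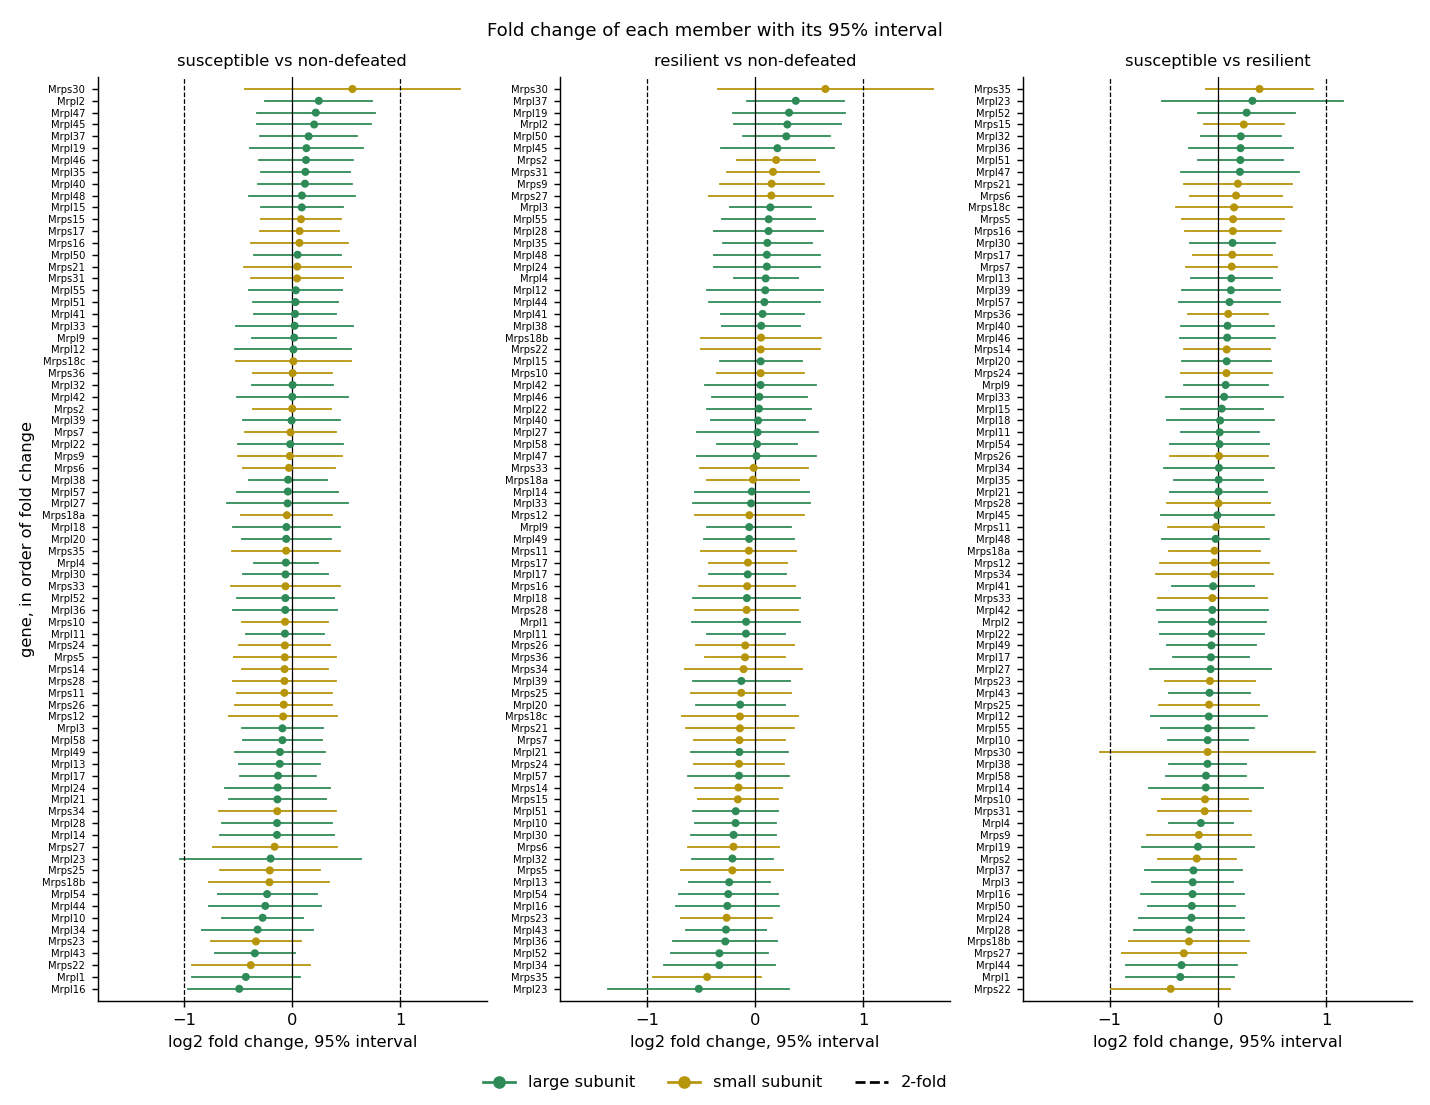
Log2 fold change of CPM + 1 with its 95% interval for each of the 77 genes in the 3 comparisons, in order of fold change (green, large subunit; ochre, small subunit; dashed lines, 2-fold). In each comparison 75 of 77 intervals lie between the dashed lines, and Mrps30 and Mrpl23 have the widest.

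In susceptible against non-defeated mice, log2 fold changes of the 77 genes ran from -0.49 to 0.56 with a median of -0.06, where all genes tested had a median of 0.01. The median was -0.05 for the large and -0.06 for the small subunit, and 50 of the 77 genes were negative, against 47.8% of all genes. Leaving out non-defeated replicate 4 gave a median of 0.01, so the sign of the family median rests on that library, and leaving out resilient replicate 4 and non-defeated replicates 3 and 4 gave 0.10. Groups overlapped in all 77 genes, where they did not overlap in 2.22% of all genes.

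The smallest p of this comparison was that of Mrpl16 (ENSMUSG00000024683, chromosome 19, 11770391 to 11774960, GRCm38), the counterpart of bacterial L16. It had 22.5, 30.6, 19.8 and 29.9 CPM in susceptible, 27.5, 34.5, 26.9 and 31.5 CPM in resilient and 37.4, 30.4, 47.8 and 30.7 CPM in non-defeated libraries. The highest susceptible and the lowest non-defeated value crossed by a fraction of 1 CPM. Its log2 fold change was -0.49 (SE 0.22, unadjusted p = 0.0448, adjusted p = 0.998 by limma). Mrpl43, a subunit that bacterial ribosomes lack, had 58.1, 51.4, 54.8 and 64.2 CPM in susceptible, 51.2, 60.3, 77.4 and 54.6 CPM in resilient and 63.0, 70.3, 73.9 and 85.0 CPM in non-defeated libraries. Susceptible replicate 4 lay above non-defeated replicate 1, and the log2 fold change was -0.35 (SE 0.17). Mrpl1, the counterpart of the bacterial L1 stalk protein, had 23.3, 22.3, 16.0 and 13.7 CPM in susceptible, 25.3, 24.3, 24.2 and 21.1 CPM in resilient and 24.1, 31.2, 20.5 and 25.9 CPM in non-defeated libraries. Its low values in susceptible replicates 3 and 4, both of title letter N, had no match in susceptible replicates 1 and 2 or in the resilient libraries, and the log2 fold change over non-defeated was -0.43 (SE 0.23). In the small subunit the next were Mrps23 (-0.34, SE 0.20) and Mrps22 (-0.38, SE 0.26). None of these passed the test.

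In resilient against non-defeated mice the range was -0.52 to 0.65 and the median -0.05, where all genes had 0.02. The large subunit median was -0.01 (0.00 without TMM scaling) and the small subunit median -0.08, and 45 of the 77 genes were negative, against 47.2% of all genes. Leaving out resilient replicate 4 gave a family median of 0.06, and leaving out non-defeated replicate 4 gave 0.00. Mrps35, a small subunit protein without a bacterial counterpart, had the smallest p. It had 13.96, 19.2, 18.6 and 16.7 CPM in resilient libraries, against 18.4, 21.8, 25.9 and 29.2 CPM in non-defeated libraries. Resilient replicates 2 and 3 overlapped non-defeated replicate 1, and the log2 fold change was -0.44 (SE 0.23, unadjusted p = 0.0772, adjusted p = 0.759 by limma). Mrpl37, another subunit that bacteria lack, had 103, 68.9, 56.3 and 51.9 CPM in resilient libraries, against 57.8, 55.4, 42.0 and 53.2 CPM in non-defeated libraries. Its log2 fold change of 0.38 (SE 0.21) leaned on resilient replicate 1, while replicate 4 lay below 3 non-defeated libraries. Mrpl52 had 24.1, 28.0, 28.3 and 25.4 CPM in resilient and 25.8, 28.5, 38.8 and 43.6 CPM in non-defeated libraries, with overlap at the low end and a log2 fold change of -0.33 (SE 0.21).

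Mrpl32, the counterpart of bacterial L32, whose precursor is known in yeast to be cut by a protease of the inner membrane before it joins the ribosome, was the only gene of the 77 whose groups did not overlap, against 3.66% of all genes in this comparison. It had 33.8, 37.6, 39.0 and 37.8 CPM in resilient libraries and 41.7, 39.1, 39.1 and 53.3 CPM in non-defeated libraries. The gap between the groups was a fraction of 1 CPM, and the log2 fold change of -0.21 (SE 0.17) did not pass the test (unadjusted p = 0.247 by limma). Susceptible libraries had 45.6, 43.4, 37.8 and 45.7 CPM, which spanned the range of non-defeated replicates 1 to 3.

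In susceptible against resilient mice the range was -0.44 to 0.39 and the median -0.02, the same as that of all genes. The median was -0.03 for the large and -0.02 for the small subunit, and 41 of the 77 genes were negative, against 52.1% of all genes. Without resilient replicate 4 the family median was -0.15, and without resilient replicate 1 it was 0.08. Groups overlapped in all 77 genes, where they did not overlap in 2.45% of all genes. Mrps22, a small subunit protein without a bacterial counterpart that is linked to mitochondrial disease in humans, had the smallest p. It had 16.1, 27.6, 12.4 and 17.4 CPM in susceptible, 24.1, 23.5, 27.9 and 21.8 CPM in resilient and 24.97, 27.5, 18.1 and 23.8 CPM in non-defeated libraries. Susceptible replicates 1, 3 and 4 lay below all resilient libraries and replicate 2 within them, and the log2 fold change was -0.44 (SE 0.26, unadjusted p = 0.110, adjusted p = 0.9996 by limma). Next in order of p in the small subunit came Mrps35 (0.39, SE 0.23), and in the large subunit Mrpl1 (-0.35, SE 0.23) and Mrpl44 (-0.34, SE 0.24), a subunit with a ribonuclease III fold.

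None of the 14 core members, chosen by structural role, passed the test. Their log2 fold changes ran from -0.38 to 0.25 for susceptible over non-defeated, from -0.21 to 0.30 for resilient over non-defeated and from -0.44 to 0.14 for susceptible over resilient, with SEs of 0.17 to 0.26. Mrps22, described above, had the lowest value in both comparisons of susceptible mice, and Mrpl2 had the highest in both comparisons with non-defeated mice. In the large subunit, the peptidyl transferase region proteins Mrpl2 and Mrpl3 had log2 fold changes of 0.25 and -0.09 for susceptible over non-defeated, and of 0.30 and 0.14 for resilient over non-defeated. The base of the stalk that recruits translation factors, Mrpl10 and Mrpl11, had -0.27 and -0.07 for susceptible over non-defeated, and -0.18 and -0.08 for resilient over non-defeated. The stalk protein Mrpl12 had 0.01 and 0.09 in the same comparisons. For Mrpl45, which in mammalian structures lines the exit tunnel and anchors the ribosome to the inner membrane, the values were 0.20 and 0.21. For Mrpl58, a peptidyl-tRNA hydrolase built into the large subunit, they were -0.09 and 0.02. In the small subunit, Mrps12, the counterpart of the decoding protein S12, had 74.0, 95.7, 84.8 and 86.0 CPM in susceptible, 126, 90.3, 96.3 and 51.3 CPM in resilient and 75.9, 79.8, 103 and 105 CPM in non-defeated libraries. Resilient replicates 1 and 4 were its highest and lowest libraries, and its log2 fold changes over non-defeated were -0.08 in susceptible and -0.05 in resilient mice (SE 0.23 each). Mrps2, Mrps5, Mrps7, Mrps16 and Mrps34 lay between -0.14 and 0.07 for susceptible and between -0.21 and 0.20 for resilient over non-defeated, with SEs of 0.17 to 0.25.

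While the group means were close, the genes stood high or low together from library to library. Summed over the 48 large subunit genes, susceptible libraries had 2869, 3225, 2925 and 3014 CPM, resilient libraries 3731, 3190, 3236 and 2337 CPM, and non-defeated libraries 2650, 2976, 3317 and 3498 CPM. Summed over the 29 small subunit genes, susceptible libraries had 1567, 1826, 1700 and 1695 CPM, resilient libraries 2024, 1756, 1781 and 1240 CPM, and non-defeated libraries 1475, 1674, 1942 and 1975 CPM. Resilient 1 and resilient 4 were the highest and the lowest library in both sums, so the resilient group alone spanned the full range, and the susceptible libraries lay closest together. The sum of the large over that of the small subunit stayed between 1.71 and 1.88 in all 12 libraries. Within this narrow range every resilient library lay above every non-defeated library. The mean ratio was 1.77 ± 0.045 in susceptible, 1.84 ± 0.032 in resilient and 1.76 ± 0.039 in non-defeated libraries (SD, n = 4 each). Susceptible replicate 1 (1.83) lay inside the resilient range and susceptible replicates 2 to 4 lay below it. This difference in the ratio was not tested. The sum of all 77 genes differed by up to 1.61-fold between libraries. That sum was 4705 ± 257 CPM in susceptible, 4824 ± 908 CPM in resilient and 4877 ± 611 CPM in non-defeated libraries (SD, n = 4 each). The ratios of these means were 0.965 for susceptible over non-defeated, 0.989 for resilient over non-defeated and 0.975 for susceptible over resilient, each within the spread of the libraries. Within title letter N, susceptible replicates 3 and 4 (4626 and 4709 CPM) lay inside the resilient range, and within letter H, susceptible replicates 1 and 2 (4436 and 5051 CPM) lay inside the non-defeated range.

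Gene by gene the pattern was the same. Of the 77 genes, the number above their own mean over 12 libraries was 23, 56, 31 and 38 in susceptible, 64, 50, 46 and 8 in resilient and 14, 29, 52 and 65 in non-defeated libraries. Over all genes tested this share was 46.9% to 54.2% in every library, a balance that TMM scaling and centring on each gene's own mean hold in place, so it does not tell a tilt of the family from one of the library. Resilient 4 was the lowest of the 12 libraries for 47 of the 77 genes, 28 of the large and 19 of the small subunit. The highest library was resilient 1 for 29 genes and non-defeated 4 for 19. These counts were not taken over all genes, so they do not show a trait particular to the family. Resilient 4 was also the shallowest library, with 33.3 M reads, and had the highest TMM factor, 1.10, and the part of these in its low values was not tested. Summed neuron markers were lowest in resilient 4 (4203 CPM), with non-defeated 1 next (4208 CPM), and highest in resilient 1 (5547 CPM). Lateral habenula markers were also lowest in resilient 4 (1716 CPM) and highest in resilient 1 (2744 CPM). Non-defeated 3, high for the 77 genes, lay below resilient 2 in neuron markers (4599 against 5309 CPM). The part of tissue composition in the pattern was not tested. Mrpl42, the most abundant member, shows the pattern with 156, 163, 187 and 169 CPM in susceptible, 261, 180, 199 and 99.5 CPM in resilient and 128, 174, 181 and 200 CPM in non-defeated libraries. Mrps21 shows it in the small subunit with 73.7, 82.8, 87.1 and 90.1 CPM in susceptible, 95.7, 71.6, 92.9 and 44.5 CPM in resilient and 62.5, 74.5, 95.4 and 94.8 CPM in non-defeated libraries. In both genes the resilient group held the highest and the lowest library.

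**Figure D3:**
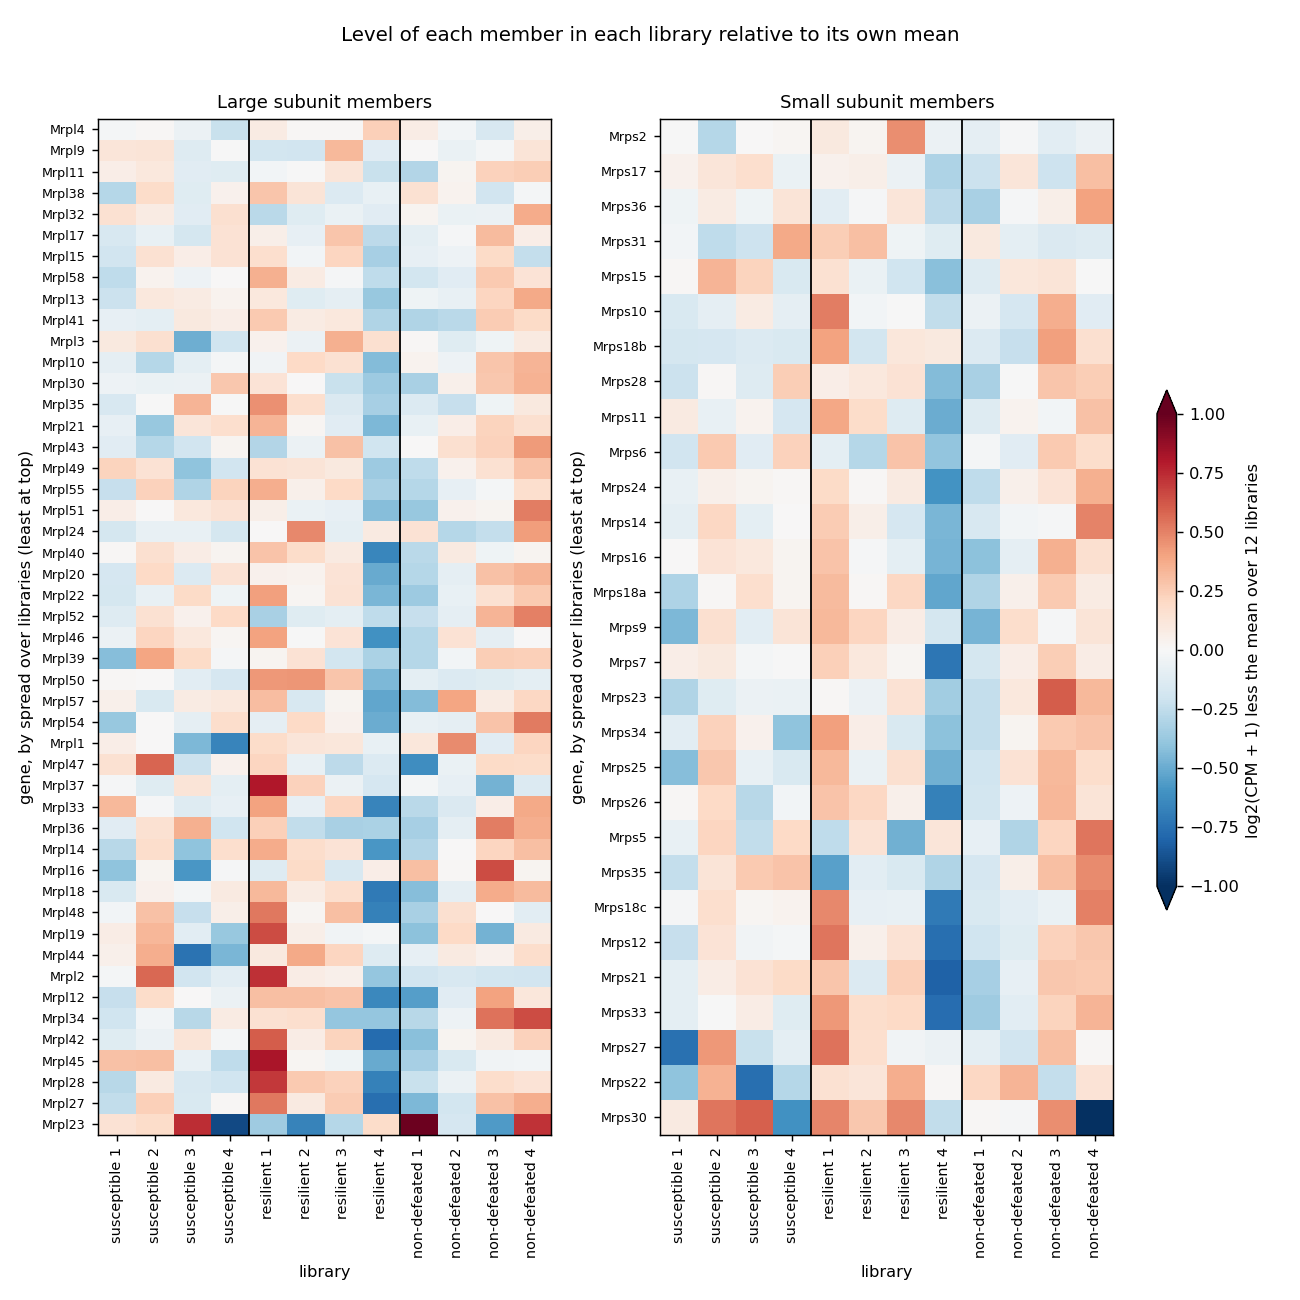
Level of each gene in each library, as log2(CPM + 1) less that gene's mean over 12 libraries (red, above; blue, below), for large (left) and small (right) subunit genes in order of spread. The columns of resilient 4 and non-defeated 1 are mostly blue and those of resilient 1 and non-defeated 4 mostly red in both subunits, and no group is of 1 colour.

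Nuclear genes for oxidative phosphorylation, most of whose products assemble with proteins made on these ribosomes, stood high and low in many of the same libraries. The median deviation from the own mean was -0.36 in resilient 4 and 0.19 in non-defeated 4 for the 77 genes, and -0.38 and 0.37 for 84 oxidative phosphorylation genes. The match was not complete. Resilient 1, the highest library of the 77 genes (0.25), ranked 8 from the lowest for the oxidative phosphorylation genes (0.11). Susceptible 4 had -0.0005 for the 77 genes and 0.16 for the oxidative phosphorylation genes. Cytosolic ribosomal protein genes did not follow the order of the 77 genes in the resilient libraries. Their 70 genes had median deviations of -0.25 to -0.21 in all 4 resilient libraries, where the mitochondrial ones ran from -0.36 to 0.25. In non-defeated replicates 1 to 4 the cytosolic ones had -0.13, 0.16, 0.20 and 0.64, and the mitochondrial ones -0.20, -0.05, 0.19 and 0.19. Replicate 1 was thus the lowest and replicates 3 and 4 the highest non-defeated libraries in both families. For 9702 other genes of similar transcript length the medians stayed between -0.08 and 0.13 in all libraries. Resilient 4 was lowest, non-defeated 1 next and resilient 1 highest among them too, as for the 77 genes. Non-defeated 3 and 4, which stood at 0.19 each for the 77 genes, were at 0.01 and 0.004 there. Between groups, the median log2 fold change of the 70 cytosolic ribosomal protein genes was -0.16 for susceptible over non-defeated, -0.43 for resilient over non-defeated and 0.29 for susceptible over resilient. For the oxidative phosphorylation genes it was -0.03, -0.10 and 0.05 in the same order. None of the genes of either family passed the test. For resilient over non-defeated, 38 of the 70 cytosolic genes had an unadjusted p under 0.05 (limma), all lower, against 7.14% of all genes. Groups did not overlap in 22 of the 70, all lower, against 3.66% of all genes. Of the 84 oxidative phosphorylation genes, 1 had such a p and was higher, and 2 had such a p and were lower.

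**Figure D4:**
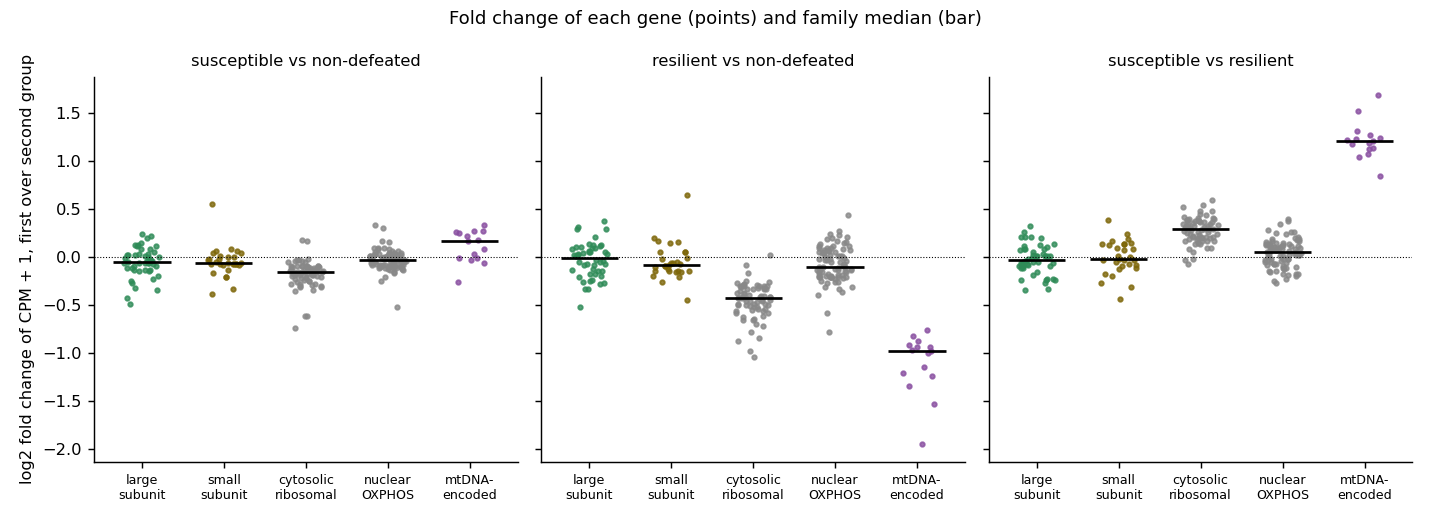
Log2 fold change of CPM + 1 of each gene (points) and family median (bars) in the 3 comparisons, for large and small subunit genes, cytosolic ribosomal protein genes, nuclear oxidative phosphorylation genes and genes of mitochondrial DNA. The mitochondrial ribosomal protein genes lie around 0 in each panel, and the genes of mitochondrial DNA lie at a median of -0.98 for resilient over non-defeated and 1.21 for susceptible over resilient.

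Transcripts of the mitochondrial genome include the ribosomal RNAs of this ribosome and all messages it translates, and their share of reads was lowest in the resilient libraries. The 15 mitochondrially encoded genes of the table took 8.37%, 8.01%, 10.2% and 12.6% of reads in susceptible, 4.04%, 4.55%, 5.13% and 4.46% in resilient and 9.35%, 10.2%, 6.73% and 10.6% in non-defeated libraries. All resilient libraries lay below all others. Their summed CPM averaged 100029 ± 22953 in susceptible, 44913.5 ± 5025 in resilient and 92042.5 ± 18286 in non-defeated libraries (SD, n = 4 each), a ratio of 0.488 for resilient over non-defeated. Of all genes tested, 0.0% passed for susceptible over non-defeated, 0.00584% for resilient over non-defeated and 0.0468% for susceptible over resilient. Of the 15 genes, 0, 1 and 7 passed the test in the same order (limma, adjusted p under 0.05). These calls were lost in many settings: the count was 0 in 13 of 27 for resilient over non-defeated and in 15 of 27 for susceptible over resilient, among them the fit without the robust step, with the replicate block, with only the groups compared and by the edgeR quasi-likelihood test, while DESeq2 called 15 in both. For susceptible over resilient, leaving out any 1 susceptible or resilient library, or non-defeated replicate 1 or 2, gave 0, leaving out non-defeated replicate 4 gave 2 and leaving out non-defeated replicate 3 gave 9. For resilient over non-defeated, leaving out susceptible replicate 2 or 3, resilient replicate 1 or 2, or non-defeated replicate 1, 2 or 4 gave 0, and leaving out any other library gave 1 to 3. All 15 had groups without overlap in the comparisons that involve resilient mice. Over all genes this share was 3.66% for resilient over non-defeated and 2.45% for susceptible over resilient. The 15 genes are transcripts of the same genome, so they are not independent of each other.

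Set against each other within a library, the summed CPM of mitochondrially encoded genes over that of the 77 protein genes was 18.7, 16.0, 23.1 and 27.5 in susceptible, 7.30, 9.12, 10.3 and 11.4 in resilient and 22.6, 22.2, 12.5 and 19.3 in non-defeated libraries. Every resilient library lay below every other library, with non-defeated 3 the nearest. The mean ratio was 21.3 ± 5.06 in susceptible, 9.53 ± 1.74 in resilient and 19.2 ± 4.66 in non-defeated libraries (SD, n = 4 each). The resilient mean was thus 0.497 of the non-defeated mean, with 0.446 to 0.536 when any 1 library of either group was left out. For the mitochondrial ribosomal RNAs alone, the sum over that of the 77 genes was 2.79, 2.53, 3.23 and 3.73 in susceptible, 1.11, 1.40, 1.41 and 1.59 in resilient and 3.42, 3.36, 2.07 and 3.36 in non-defeated libraries. Again no resilient library reached the lowest of the others. Within title letter N, susceptible replicates 3 and 4 lay above all resilient libraries in these ratios. How evenly the library kit captured ribosomal RNA was not tested, so the ribosomal RNA ratios compare reads and not amounts of ribosome parts. No test was run on sums over the family. Medial habenula markers summed to 141 to 250 CPM in susceptible, 96.5 to 152 CPM in resilient and 165 to 592 CPM in non-defeated libraries, with all 10 markers of the list measured and none at 0 throughout, and their part in the difference of the ratio was not tested.

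**Figure D5:**
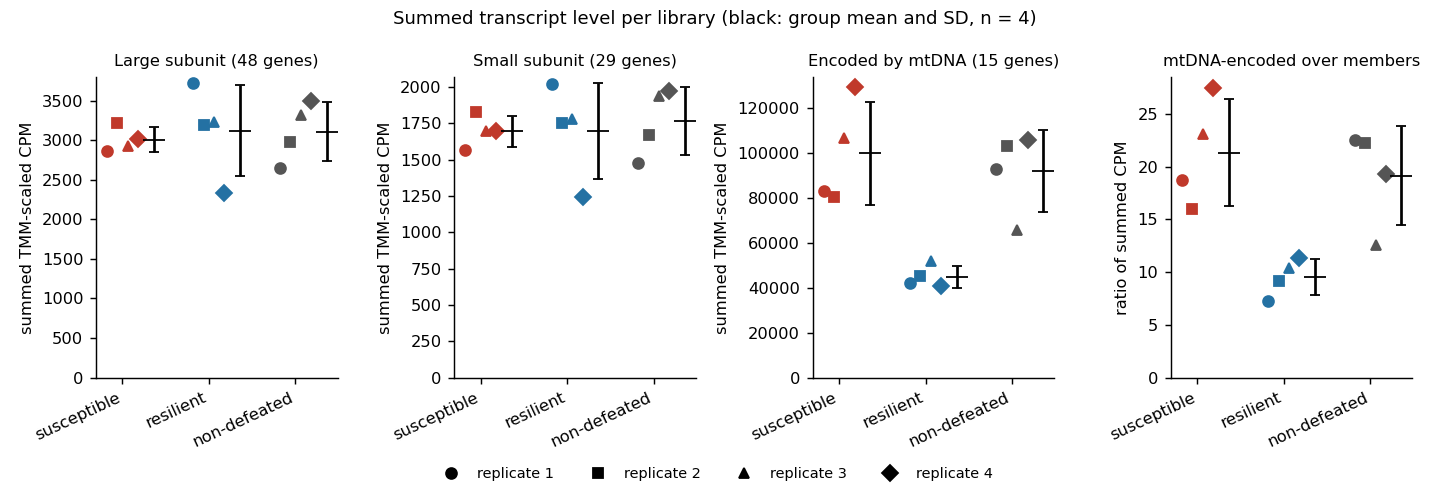
Summed TMM-scaled CPM of the 48 large subunit, 29 small subunit and 15 mitochondrially encoded genes, and the ratio of mitochondrially encoded to mitochondrial ribosomal protein genes, in each library (symbols, replicates; black, mean and SD, n = 4). The subunit sums overlap between groups, while the resilient libraries lie below all others in the mitochondrially encoded sum and in the ratio.

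The rest of the mitochondrial translation apparatus was described by lists fixed by function. None of the 6 ribosomal subunits without an Mrp symbol, 24 assembly and RNA modification genes, 17 translation factor genes and 17 tRNA synthetase genes passed the test in any comparison (limma, adjusted p under 0.05). For resilient over non-defeated their median log2 fold changes were -0.02, 0.08, 0.17 and 0.13, and for susceptible over non-defeated -0.10, 0.07, 0.03 and -0.10. At an unadjusted p under 0.05 stood 2 of these 64 genes (3.12%) for susceptible over non-defeated, 4 (6.25%) for resilient over non-defeated and 2 (3.12%) for susceptible over resilient, each share below that of all genes given above (3.54%, 7.14% and 3.51%). The 4 for resilient over non-defeated were Lrpprc (0.75, SE 0.32), which stabilises mitochondrial messages, Ddx28 (0.65, SE 0.27), an RNA helicase of large subunit assembly, Oxa1l (-0.58, SE 0.20), the insertase that receives proteins from the ribosome, and Yars2 (0.97, SE 0.30), the mitochondrial tyrosyl-tRNA synthetase. Yars2 lay between 19.5 and 44.9 CPM in susceptible, 35.7 and 40.2 CPM in resilient and 10.4 and 27.3 CPM in non-defeated libraries, and its adjusted p was 0.564 by limma. Resilient and non-defeated libraries did not overlap in it, which held for 3.66% of all genes.

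In the authors' deposited table, none of the 77 genes reached an FDR under 0.05 over the 3 groups, and none had a p under 0.05, against 4.89% of all genes there. The smallest p in the authors' deposited table was that of Mrpl16, 0.206. The authors' deposited table also correlates each gene with an interaction ratio from a behaviour test, a single value for each library whose terms are not defined there. For the 77 genes those deposited coefficients, over the same 12 libraries, ran from -0.43 to 0.73 with a median of -0.05, where all genes had a median of 0.10. By the authors' Pearson test, 3 of the 77 (3.9%) had a p under 0.05, all positive, against 6.57% of all genes.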

How the data were processed

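RNA-seq of 12 lateral habenula libraries was analysed from the authors' table. The submitters' processing notes name featureCounts, edgeR and GRCm38 (mm10), with no versions, and the aligner and strand setting are not stated in the labels. The 12 deposited columns are headed as counts, but hold CPM plus a constant of 0.006078: once this is taken off, every value (100%) is a whole number of reads to within 0.001 read. The authors also deposited log2 ratios between groups, a likelihood ratio score, its p-value and FDR, correlations, and an interaction ratio for each library. Leaving out 1 last line that names no gene, 17416 genes remained, and 17402 identifiers matched GENCODE M21.

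The CPM were scaled by TMM (edgeR 4.0.16) and tested as log2(CPM + 1) with limma-trend 3.58.1 (robust, R 4.3.3), a model of 3 group means over all 12 libraries, with p-values Benjamini-Hochberg adjusted over 17111 genes. A low-value filter (filterByExpr, minimum count 10) removed 305 genes and no member. Fold changes are on that scale and understate changes of low genes. Library totals were 33.3 to 47.7 M reads, recovered as whole reads from the CPM. The edgeR quasi-likelihood test and DESeq2 1.42.0 on these reads were alternatives. The fit was tested on simulated data.

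The family, the lists and the comparisons were chosen with earlier results of these data known. Named are the 6 large and 4 small subunit genes of smallest p in each comparison, the 3 highest and lowest per length in each subunit, and 14 core genes chosen by structural role; Mrpl23 and the overlapping or neighbouring genes were named after their values were seen. Same-numbered replicates did not deviate together (correlations of -0.19 to 0.13), so numbers were not treated as pairs.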

Additional observations from a re-analysis of the deposited data

Results flagged for a closer look

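Of 60 groups of 4 values examined, 1 held a library that stood apart from the other 3, where chance marks about 1 in 20. Mrpl12, which forms the stalk that recruits translation factors, had 35.8 CPM in resilient 4, against 69.9, 69.8 and 69.0 CPM in the other resilient libraries. Its gap to the nearest library was 0.973 of the range of the group, above Dixon's 95% critical value for groups of 4. Susceptible libraries had 48.03, 64.5, 56.7 and 54.3 CPM and non-defeated libraries 38.4, 52.2, 75.2 and 61.3 CPM. Resilient 4 was the lowest of the 12 libraries for 47 of the 77 genes, so a low value there is not particular to Mrpl12. The flag also rests on how close together the other resilient values lay. The groups examined covered summed levels, their ratios and only 14 of the 77 genes, Mrpl12 among them by choice.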

How the results depend on the processing

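The count of mitochondrial ribosomal protein genes past the threshold was 0 in all 3 comparisons under every one of 27 other settings, among them other scalings, pseudocounts, filters and tools and each library left out in turn, and the lowest adjusted p of any of these genes in any setting was 0.163 (limma, without resilient replicate 4). Over all genes DESeq2 called 23, 88 and 38 genes for susceptible over non-defeated, resilient over non-defeated and susceptible over resilient, limma voom 0, 8 and 16, and edgeR 0, 0 and 0.

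Leaving out 1 library at a time moved the family median between -0.14 and 0.01 for susceptible over non-defeated, between -0.14 and 0.06 for resilient over non-defeated, and between -0.15 and 0.08 for susceptible over resilient. For resilient over non-defeated that range was -0.11 to 0.10 in the large and -0.20 to 0.06 in the small subunit, and 0.926 to 1.07 for the ratio of summed member CPM. Without resilient replicate 4 and non-defeated replicates 3 and 4, the libraries least like the others, the resilient over non-defeated medians were 0.21 for all members, 0.21 for the large and 0.21 for the small subunit. The ratio of summed member CPM was then 1.19, a setting added for the ratio after seeing the data, and 8 of 77 members (10.4%) had an unadjusted p under 0.05, all higher, with 0 past the threshold, where 11.8% of all genes had such a p and 5.92% were also higher. Without resilient replicate 4 alone there were 3 (3.9%), all higher, against 11% of all genes, and 5.7% of all genes were also higher. For susceptible over non-defeated, leaving out the same 3 libraries gave medians of 0.10, 0.09 and 0.10 for all members, the large and the small subunit and a ratio of summed member CPM of 1.07. The cause was not tested. Limma voom gave a resilient over non-defeated median of 0.05.

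With the replicate number as a block the medians were -0.06, -0.05 and -0.02, as without it, and 0 members were called; same-numbered libraries share only a number. With the title letter as a term 0 members were called. In that fit 4 members (5.19%) had an unadjusted p under 0.05 (limma) for susceptible over resilient, all lower, against 3.43% of all genes. For resilient over non-defeated there were 2 (2.6%), all higher, against 3.91% of all genes, and for susceptible over non-defeated 0, against 3.14%. Among 117 fold changes of 39 named members, 68 changed sign in at least 1 setting and 49 did not. With 4 libraries a group, differences under about 2-fold in single genes were often not detectable.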
